A study of Mus musculus with 8 samples.

Results

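The miRNAs described here are 6 products of the clusters miR-143/145 and miR-199a/miR-214, which are known from smooth muscle and from mesenchymal (stromal) cells. They were mmu-miR-143-3p, mmu-miR-145a-5p, mmu-miR-145a-3p, mmu-miR-199a-3p, mmu-miR-199a-5p and mmu-miR-214-3p (written without the prefix from here on), of 1881 mouse miRNAs on the array. They were chosen by name, with earlier results of these data known. Serum miRNAs of 4 irradiated mice (7 Gy) and of 4 non-irradiated mice (0 Gy) were measured with a 1-colour Agilent mouse miRNA microarray, 1 array per serum, in order to find serum miRNAs that change after a high dose. Animals of both groups were C57BL/6NJcl males, 8 weeks old. The irradiated mice had received whole-body X-rays and their sera were taken at 72 h, whereas the time of the 0 Gy sera on the arrays is not named in the sources used here. Each array was hybridised with Cy3-labelled miRNA made from 30 ng of serum RNA. No source says that sera were pooled, and the p-values measure the spread between these sera together with that between their arrays.

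Mature miRNAs are RNAs of about the length of the sequences printed here that guide Argonaute proteins to messenger RNAs, mostly by pairing of the seed near the 5′ end. miR-143 and miR-145 are processed from 1 primary transcript, are abundant in smooth muscle, where they favour the contractile state, and in the mouse intestine are made by the stroma rather than by the epithelium. miR-199a and miR-214 are processed from Dnm3os, a non-coding RNA that is made in mesenchyme from the strand opposite to the gene Dnm3, and both are known from fibroblasts and fibrosis. Serum holds miRNAs released by many tissues and by blood cells, so that no cell of origin was measured here, and fewer cells of a type cannot be told apart from less RNA per cell or less release.

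RefSeq sequences (GRCm38.p6) were matched for 3 of the 6 miRNAs, and they are shown because 2 of them come from 1 hairpin and the third from its neighbour on the same transcript, yet the third was detected on arrays where the others were not. The seed, bases 2 to 8, is in capitals, and each sequence runs 5′ to 3′.
miR-199a-5p: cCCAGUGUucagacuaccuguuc
miR-199a-3p: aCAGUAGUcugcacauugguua
miR-214-3p: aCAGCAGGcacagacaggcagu

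The seeds of the 3 miRNAs differed from each other. miR-199a-5p lies at chr1:162217844-162217866 and miR-199a-3p at chr1:162217883-162217904 on the plus strand, in the hairpin Mir199a-2, and the same mature sequences also come from Mir199a-1 on the minus strand of chromosome 9, at chr9:21496537-21496559 for the 5p arm and chr9:21496498-21496519 for the 3p arm. miR-214-3p lies at chr1:162223438-162223459. The 2 hairpins of chromosome 1, with the mature arms in capitals, were as follows.
Mir199a-2: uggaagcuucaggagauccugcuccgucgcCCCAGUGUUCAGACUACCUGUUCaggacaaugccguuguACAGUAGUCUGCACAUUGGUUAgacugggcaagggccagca
Mir214: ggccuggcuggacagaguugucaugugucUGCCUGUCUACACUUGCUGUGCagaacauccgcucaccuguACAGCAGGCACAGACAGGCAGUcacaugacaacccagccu

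Mir199a-2 (chr1:162217814-162217923) and Mir214 (chr1:162223368-162223477) lie 5444 bases apart, and both lie inside Dnm3os (chr1:162217623-162225550) and inside the bounds of the protein-coding gene Dnm3. The mature sequence of miR-199a-3p is also that of miR-199b-3p, from Mir199b on chromosome 2, so that the probes named for miR-199a-3p cannot tell the 2 apart. The seed of miR-214-3p is shared with miR-761, which was detected on 0 of the 8 arrays.

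The arrays were not alike in labelling. The labelling spike-ins, control RNAs added before the Cy3 labelling, had a log10 signal of 2.31, 3.35, 1.95 and 1.97 on 7 Gy replicates 1 to 4, against 3.68, 3.45, 2.73 and 3.37 on 0 Gy replicates 1 to 4, and 7 Gy replicates 1, 3 and 4 were outside the range that the scanner software accepts. Slide columns 3 and 4 held the 7 Gy sera and slide columns 1 and 2 the 0 Gy ones, and column and dose cannot be told apart. Between 378 and 687 miRNAs were called detected on the 7 Gy arrays and between 531 and 603 on the 0 Gy arrays, and scaling the arrays to a common 90th percentile multiplied the summed spot signals by 0.409 to 3.76 on the 7 Gy arrays and by 0.416 to 1.14 on the 0 Gy arrays.

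The 6 miRNAs fell into 3 kinds by detection. miR-145a-5p and miR-214-3p were called detected on all 8 arrays, as were 311 of the 1881 miRNAs (16.5%). miR-143-3p, miR-199a-3p and miR-199a-5p were each called detected on 1 of the 4 irradiated arrays, in each case 7 Gy replicate 2, and on 3, 2 and 4 of the 4 non-irradiated arrays. Over the whole array 186 miRNAs (9.89%) were detected on that irradiated array alone of the 4. miR-145a-3p was detected on 0 arrays, like 1077 miRNAs (57.3%).

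None of the 6 detection counts reached a p under 0.05 between the doses by Fisher's exact test (two-sided). The smallest p was that of miR-199a-5p, with 1 of 4 irradiated and 4 of 4 non-irradiated arrays (Fisher's exact test, p = 0.143), a pattern that 59 miRNAs (3.14%) had. For miR-143-3p the exact p was 0.486, and the smallest p that 4 against 4 arrays allow is 0.0286.

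**Figure D1:**
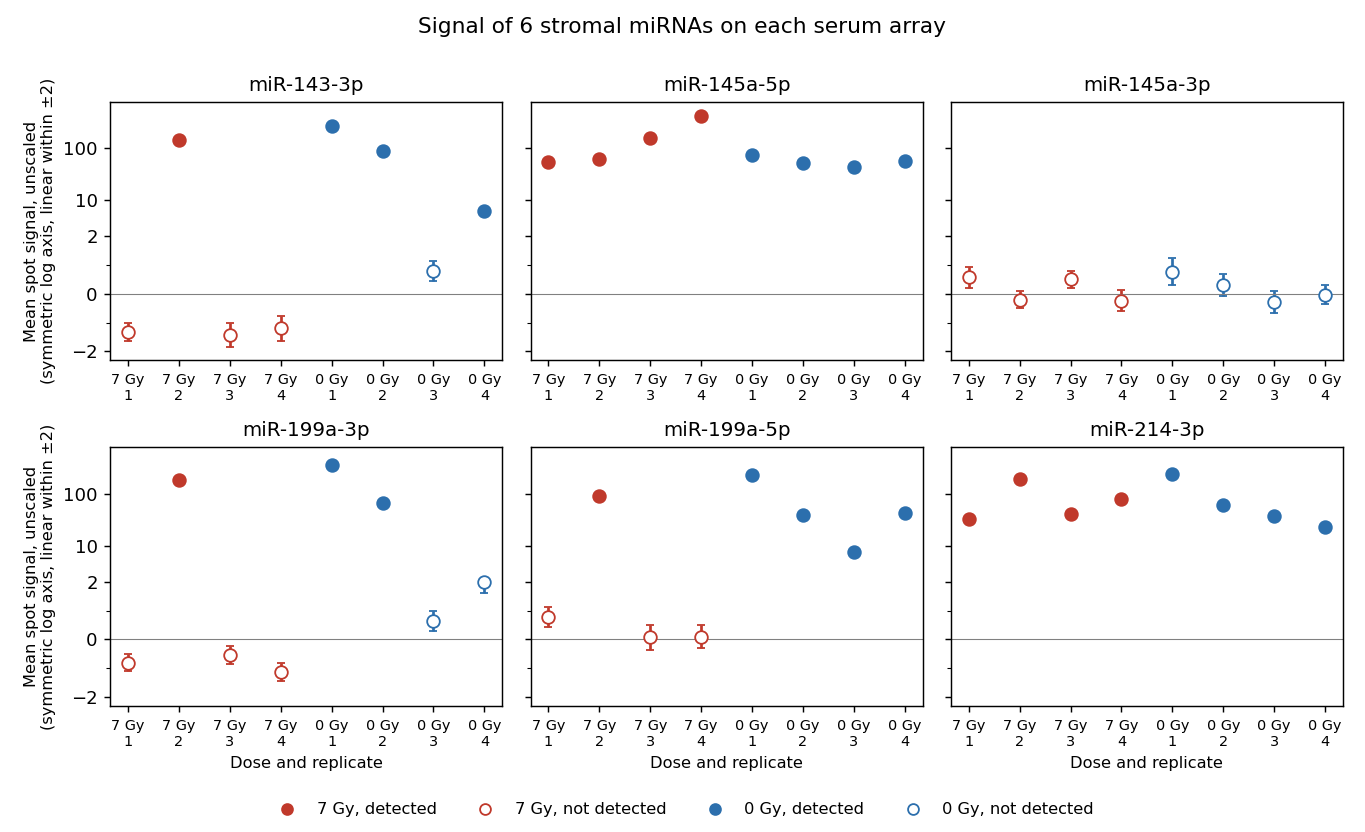
Mean background-subtracted spot signal of each miRNA (unscaled, symmetric log axis) on the 7 Gy arrays and the 0 Gy arrays, with the standard error over its 30 spots, filled where the miRNA was called detected. miR-145a-5p and miR-214-3p are filled on all 8 arrays, whereas miR-143-3p, miR-199a-3p and miR-199a-5p are filled on 1 irradiated array, replicate 2.

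The signal given for each miRNA is the gene signal of the scanner software, summed over its probes, in which 0.1 stands wherever a miRNA was not called detected. Each miRNA also had 30 spots, whose background-subtracted signals remain measured below that call. Over the 20 cases in which a miRNA was not called detected on an array, the mean spot signal lay between −1.43 and 2.03, and over the 28 cases in which it was, between 6.09 and 427.

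miR-145a-5p, which is known to repress Klf4 and to favour smooth muscle differentiation, had its highest signals on irradiated arrays, but not on all of them. Its deposited gene signal was 24.3, 34.5, 67.5 and 239 on 7 Gy replicates 1 to 4, against 40.8, 28.8, 23.9 and 32.3 on 0 Gy replicates 1 to 4. Before any scaling, 7 Gy replicates 3 and 4 lay above every non-irradiated array, and replicates 1 and 2 lay among them. After scaling, the summed spot signal was 6003, 751, 17926 and 10385 on 7 Gy replicates 1 to 4, against 914, 748, 1463 and 1725 on 0 Gy replicates 1 to 4. On this scale 7 Gy replicates 1, 3 and 4 lay above every non-irradiated array, and 7 Gy replicate 2 lay within their range, so that the groups overlapped.

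The scaled signal of miR-145a-5p averaged 8766 ± 7267 at 7 Gy and 1213 ± 459 at 0 Gy (SD, n = 4 each). The log2 difference, 7 Gy minus 0 Gy, was 2.23 (standard error 0.94, limma, unadjusted p = 0.0401, adjusted p = 0.141), and it did not pass the adjusted threshold of 0.05. The size was 1.21 with normexp background correction, 1.17 with no scaling and 4.19 with scaling to the labelling spike-ins. The normexp correction used median spot signals and added an offset of 50, which shrinks log2 differences where signals are low. Of the 6 miRNAs it was also the only one with enough signal for a test with a lower cut-off of 100 on the scaled gene signal. The study's methods name such a cut-off without saying whether it is a floor or a filter, and it was read here as a floor. There its log2 difference was 0.64 (standard error 0.36, limma, adjusted p = 0.273; 3.85% of the 208 miRNAs tested there passed), with all 4 non-irradiated arrays and 7 Gy replicate 2 at that floor. That value was 0.31 without 7 Gy replicate 3, 0.084 with the labelling covariate and 0.038 within slide row 1. On the summed spot signal its 2 probes gave log2 differences of 2.29 and 2.20.

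miR-145a-3p, the opposite arm of the same hairpin, gave no usable signal. Its mean spot signal was 0.57, −0.20, 0.51 and −0.23 on 7 Gy replicates 1 to 4, against 0.77, 0.31, −0.27 and −0.025 on 0 Gy replicates 1 to 4. All 8 values lay around 0 and were not well above background, and no fold was taken.

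miR-143-3p, the partner of miR-145a-5p on the primary transcript, had the other pattern. Its gene signal was 81.8 on 7 Gy replicate 2 and it was not detected on 7 Gy replicates 1, 3 and 4, against 155, 50.6 and 2.26 on 0 Gy replicates 1, 2 and 4 and no detection on 0 Gy replicate 3. The mean spot signal was −1.33, 145, −1.43 and −1.19 on 7 Gy replicates 1 to 4, against 275, 90.5, 0.80 and 6.09 on 0 Gy replicates 1 to 4. The irradiated arrays thus held 1 signal within the range of the non-irradiated ones and 3 at background, where 0 Gy replicate 3 lay too. On 0 Gy replicate 4 the call rested on 1 of 30 spots well above background.

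With signals under 10 after scaling set to 10, miR-143-3p had a log2 difference of −3.41 (standard error 1.98, limma, adjusted p = 0.267). Its 2 probes gave −2.33 and −3.03. The size of this difference depends on the floor, since 3 of the 4 irradiated arrays lay on it: it was −1.39 with a floor of 100 and −5.90 with a floor of 1. With normexp background correction, whose offset of 50 shrinks differences of low signals, it was −0.11.

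miR-199a-3p, which in human cells represses MTOR, resembled miR-143-3p across the arrays. Its gene signal was 105 on 7 Gy replicate 2 with no detection on the other 3 irradiated arrays, against 199 and 36.9 on 0 Gy replicates 1 and 2 with no detection on 0 Gy replicates 3 and 4. The mean spot signal was −0.80, 186, −0.55 and −1.15 on 7 Gy replicates 1 to 4, against 354, 65.5, 0.64 and 2.03 on 0 Gy replicates 1 to 4. The 2 groups overlapped, as 7 Gy replicate 2 lay between 0 Gy replicates 1 and 2, and each group also held arrays with no detection. The log2 difference was −2.81 (standard error 2.14, limma, adjusted p = 0.347), and the 2 probes gave −1.78 and −2.36. The difference was −1.06 with a floor of 100, −5.30 with a floor of 1 and −0.034 with normexp at its offset of 50. Without 0 Gy replicate 1 it was −1.46.

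miR-199a-5p, which in human lung fibroblasts represses caveolin-1, was detected on every non-irradiated array. Its gene signal was 52.3 on 7 Gy replicate 2 with no detection on the other 3 irradiated arrays, against 128, 21.6, 3.61 and 25.6 on 0 Gy replicates 1 to 4. The mean spot signal was 0.78, 92.8, 0.069 and 0.091 on 7 Gy replicates 1 to 4, against 230, 38.6, 7.48 and 43.2 on 0 Gy replicates 1 to 4. 7 Gy replicates 1, 3 and 4 lay below all 4 non-irradiated arrays and 7 Gy replicate 2 lay below 0 Gy replicate 1 alone. The log2 difference was −3.94 (standard error 1.5, limma, unadjusted p = 0.0258, adjusted p = 0.122), the smallest p of the 5 miRNAs tested, and its 2 probes differed in size, at −3.77 and −1.99. With 3 irradiated arrays at background, the difference was −2.22 with a floor of 100. It was −0.19 with normexp background correction at its offset of 50 (limma, adjusted p = 0.704).

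miR-214-3p, which in the mouse heart represses the sodium/calcium exchanger, was detected throughout. Its gene signal was 13.9, 109, 17.5 and 45.9 on 7 Gy replicates 1 to 4, against 132, 34.2, 20.7 and 12.8 on 0 Gy replicates 1 to 4. Unscaled, the 2 groups covered nearly the same range. After scaling the summed spot signal was 3439, 2379, 4659 and 1995 on 7 Gy replicates 1 to 4, against 2969, 888, 1268 and 681 on 0 Gy replicates 1 to 4. All 4 irradiated arrays then lay above 0 Gy replicates 2, 3 and 4, and 0 Gy replicate 1 lay among the irradiated ones.

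The scaled signal of miR-214-3p averaged 3118 ± 1195 at 7 Gy and 1451 ± 1041 at 0 Gy (SD, n = 4 each). The log2 difference was 1.27 (standard error 0.62, limma, adjusted p = 0.194), with 1.31 and 1.25 from its 2 probes. It was 0.20 with no scaling, 0.51 with normexp background correction and 3.22 with scaling to the labelling spike-ins.

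None of the 5 miRNAs tested on the summed spot signal passed an adjusted p of 0.05 by limma, where 4 of 633 miRNAs (0.632%) did. At an unadjusted p under 0.05, miR-145a-5p passed upwards and miR-199a-5p downwards, where 14.5% of the 633 passed upwards and 16.1% downwards. The groups overlapped for all 5, where 8.85% of the 633 had every irradiated array above and 5.85% every irradiated array below. Scaling left the median log2 difference of all 633 miRNAs at 0.71, with 400 above 0 and 233 below. Relative to that median the differences were 1.52 for miR-145a-5p, 0.56 for miR-214-3p, −3.52 for miR-199a-3p, −4.12 for miR-143-3p and −4.65 for miR-199a-5p, with 2 of the 5 above 0 and 3 below on either scale.

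**Figure D2:**
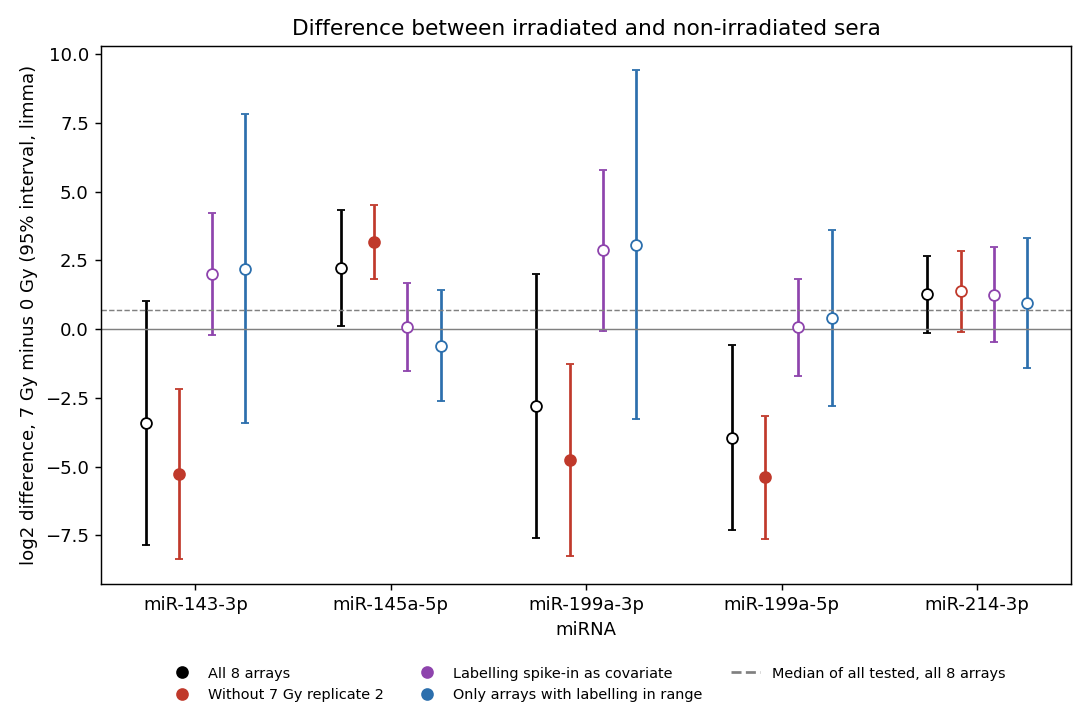
Log2 difference in scaled summed spot signal, 7 Gy minus 0 Gy, with the 95% interval from limma, for the 5 tested miRNAs under 4 choices of arrays or covariate, filled where the adjusted p was under 0.05. Without 7 Gy replicate 2, 4 of the 5 are filled, and for miR-143-3p and miR-199a-3p every irradiated array in that fit lay at the floor. In the fit that includes labelling as a covariate the points of miR-143-3p and miR-199a-3p lie above 0, at 2.0 and 2.87.

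The calls depended on 7 Gy replicate 2, the one irradiated array whose labelling spike-ins were in range. Without it, 4 of the 5 miRNAs passed the adjusted threshold by limma, but so did 221 of 633 miRNAs (34.9%). In that fit 16.6% of the 633 passed upwards, among them 1 of the 5, and 18.3% downwards, among them 3 of the 5. The log2 difference was then 3.18 for miR-145a-5p (limma, adjusted p = 0.0034), against −5.40 for miR-199a-5p (limma, adjusted p = 0.0032), −5.28 for miR-143-3p (limma, adjusted p = 0.0179) and −4.77 for miR-199a-3p (limma, adjusted p = 0.0398). miR-214-3p had 1.37 and did not pass. When only the 5 arrays in range were used, 7 Gy replicate 2 stood alone against the 4 non-irradiated arrays, its spread taken from theirs, and the differences were 2.20 for miR-143-3p, 3.07 for miR-199a-3p, 0.42 for miR-199a-5p, −0.61 for miR-145a-5p and 0.95 for miR-214-3p, none of which passed.

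Detection of 3 of the miRNAs fell on arrays with labelling in range. miR-143-3p was detected on the 4 arrays with the highest labelling signal (7 Gy replicate 2 and 0 Gy replicates 1, 2 and 4), and miR-199a-5p on these and on 0 Gy replicate 3, which together are the 5 arrays in range. miR-199a-3p was detected on 3 of them, among these 7 Gy replicate 2 but not 0 Gy replicate 4, whose labelling signals were 3.35 and 3.37. miR-145a-5p was highest on 7 Gy replicates 3 and 4, the 2 arrays with the lowest labelling signal, and miR-214-3p was detected at both ends. With the labelling signal as a covariate the differences were 2.0 for miR-143-3p, 2.87 for miR-199a-3p, 0.062 for miR-199a-5p, 0.065 for miR-145a-5p and 1.24 for miR-214-3p, and none passed. The part of labelling in these differences was not tested beyond these fits, as 3 of the 4 irradiated arrays and 0 of the 4 non-irradiated ones were out of range.

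**Figure D3:**
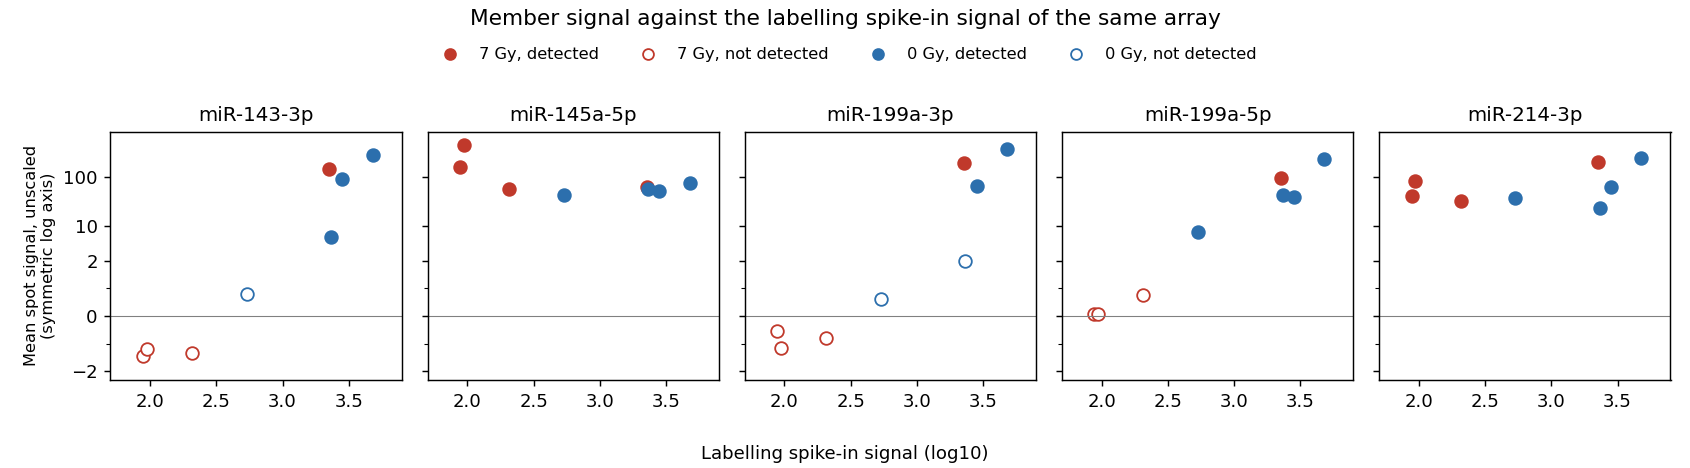
Mean spot signal of the 5 tested miRNAs (unscaled, symmetric log axis) against the log10 labelling spike-in signal of the same array, for 7 Gy and 0 Gy arrays, filled where the miRNA was called detected. The 3 irradiated arrays at 1.95 to 2.31 have no detection of miR-143-3p, miR-199a-3p or miR-199a-5p, and they have both miR-145a-5p and miR-214-3p.

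Both slide rows held both doses. Within row 1 (replicates 1 and 2) the log2 differences were 1.36 for miR-145a-5p, 0.82 for miR-214-3p, −4.0 for miR-143-3p, −3.77 for miR-199a-3p and −2.04 for miR-199a-5p, and none passed. Within row 2 (replicates 3 and 4), which does not hold 7 Gy replicate 2, they were 3.10 for miR-145a-5p, 1.71 for miR-214-3p, −2.82 for miR-143-3p, −1.84 for miR-199a-3p and −5.84 for miR-199a-5p. In that row miR-199a-3p was detected on no array. miR-143-3p was detected on 0 Gy replicate 4 alone, with 1 of 30 spots well above background. Their differences there thus set signals at or near background against the floor. Within row 2 miR-145a-5p (limma, adjusted p = 0.0240) and miR-199a-5p (limma, adjusted p = 0.0040) passed, where 15.8% of the 626 miRNAs tested did, 1.28% upwards and 14.5% downwards. For miR-199a-5p neither irradiated array of that row had detection and both lay at the floor, so that the irradiated group had no spread. The floor set its size there, and no conclusion is drawn from its p-value. With arrays weighted by their spread all 5 miRNAs passed, as did 71.9% of the 633.

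Members that share a transcript were also compared within each array, where scaling cancels except at the floor. Both arms of miR-199a also come from Mir199a-1, and the probes for miR-199a-3p also read miR-199b-3p. Ratios to miR-199a thus do not compare products of 1 transcript alone. The 4 pairs were chosen after their values were seen, and the ratios say nothing of which of 2 miRNAs is the more abundant, since probes differ. On the arrays where both were detected, the log2 ratio of miR-145a-5p to miR-143-3p was −1.25 on 7 Gy replicate 2, against −1.93, −0.81 and 3.24 on 0 Gy replicates 1, 2 and 4. The log2 ratio of miR-214-3p to miR-199a-5p was 1.06 on 7 Gy replicate 2, against 0.049, 0.66, 2.40 and −1.01 on 0 Gy replicates 1 to 4. In both, 7 Gy replicate 2 lay within the range of the non-irradiated arrays. On 7 Gy replicates 1, 3 and 4 neither miR-143-3p, miR-199a-3p nor miR-199a-5p was above background, so that ratios to them hold the floor, or a signal below the detection call, and the scaling factor of the array, and their size is not a measurement.

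With the floor of 10, the mean ratios at 7 Gy and at 0 Gy differed by 5.64 for miR-145a-5p to miR-143-3p (two-sided exact permutation test, p = 0.171), by 5.21 for miR-214-3p to miR-199a-5p (exact p = 0.0571), by 4.07 for miR-214-3p to miR-199a-3p (exact p = 0.171) and by −1.14 for the 5p to the 3p arm of miR-199a (exact p = 0.514). With a floor of 1 these differences were 8.13, 6.02, 6.56 and 0.54, and with a floor of 100 they were 3.62, 3.48, 2.32 and −1.16, so that the floor sets their size. Adjusted over the 4 pairs by Benjamini-Hochberg, the exact p was 0.229 for the first 3 pairs and 0.514 for the 2 arms. That adjustment does not cover the choice of the pairs, which was made after their values were seen. No conclusion is drawn from these p-values. The smallest exact p that 4 against 4 arrays allow is 0.0286. On the 5 arrays with labelling in range the first and the third of these differences were −2.81 and −2.11, and that of miR-214-3p to miR-199a-5p was 0.54.

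The GC content of the mature sequences printed above was 59.1% for miR-214-3p, 52.2% for miR-199a-5p and 40.9% for miR-199a-3p. Of the 633 tested miRNAs, 544 (85.9%) had a RefSeq sequence, and over these the log2 difference went with GC content, with a Spearman's rho of 0.563 across miRNAs, which share the same 8 arrays and are no replicates. The median log2 difference was −2.19 over 86 miRNAs with less than 45% GC, −0.075 over 162 with 45% to 55%, and 1.04 over 296 with at least 55%. miR-214-3p at 1.27 and miR-199a-3p at −2.81 lay near the median of their class, and miR-199a-5p at −3.94 lay below that of its own. The sizes for both arms of miR-199a depend on the floor, since most irradiated arrays had no detection of them. With a floor of 100 they were −1.06 for miR-199a-3p and −2.22 for miR-199a-5p, and with normexp, at its offset of 50, −0.034 and −0.19. Their places against these medians thus hold for the main floor only, and were not tested with another. With sequences for 3 of the 6 miRNAs, the part of GC content in their differences was not tested.

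**Figure D4:**
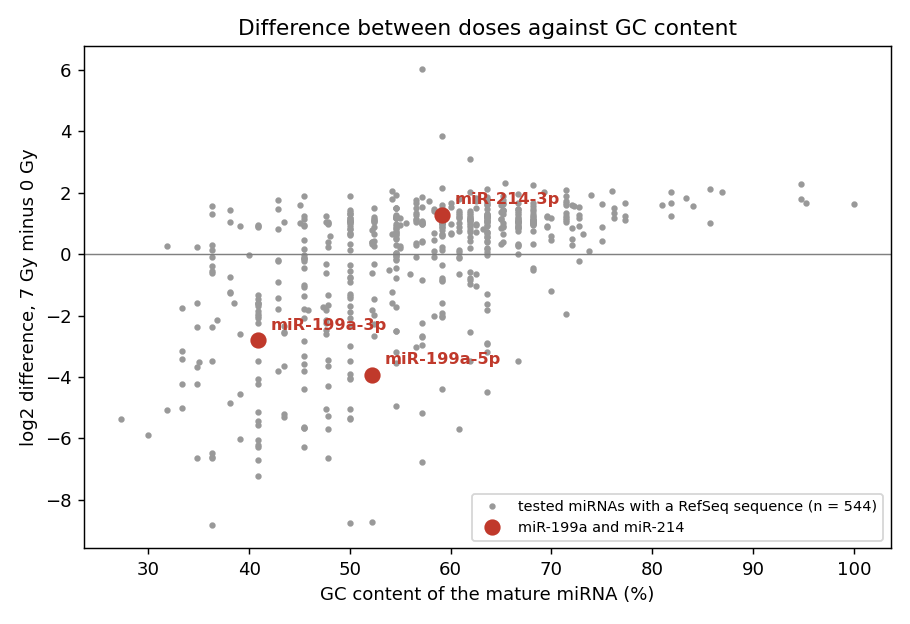
Log2 difference in scaled summed spot signal, 7 Gy minus 0 Gy, against the GC content of the mature miRNA (%) for the 544 tested miRNAs with a RefSeq sequence, with miR-199a-3p, miR-199a-5p and miR-214-3p as large points. The median difference is −2.19 below 45% GC and 1.04 from 55% GC.

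Of 4 other products of the same hairpins and seed families on the array, 1 was detected on enough arrays to be tested. It was miR-199b-5p, whose gene signal was 111 on 7 Gy replicate 2 and not detected on the other 3 irradiated arrays, against 260, 92.3 and 10.2 on 0 Gy replicates 1, 2 and 4 and no detection on 0 Gy replicate 3. It had a log2 difference of −2.81 (standard error 1.55, limma, adjusted p = 0.245). miR-214-5p was detected on 1 irradiated and 1 non-irradiated array, and miR-143-5p and miR-145b on 0 arrays.

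Of 12 other miRNAs known from fibroblasts, smooth muscle or mesenchyme, 11 were tested and 0 passed the adjusted threshold in either direction by limma. Their log2 differences were all below 0, with a median of −2.58, against a median of 0.71 over all 633 miRNAs. The 4 with the highest mean signal were miR-22-3p at −0.23, miR-125b-5p at −8.75 (limma, adjusted p = 0.0801), miR-497a-5p at −5.36 and miR-99a-5p at −5.33. miR-22-3p was detected on all 8 arrays, whereas miR-125b-5p, miR-497a-5p and miR-99a-5p were each detected on all 4 non-irradiated arrays but, of the irradiated ones, on replicate 2 alone. Lists of miRNAs from other sources of serum RNA also had medians below 0, with 14 of their 16 tested miRNAs below 0. Above 0 were miR-208a-3p of muscle, at 1.32, and miR-205-5p of epithelium, at 0.61. The medians were −6.08 over 4 red cell miRNAs, −5.63 over 3 of platelets and myeloid cells, −4.29 over 2 of lymphocytes, −2.31 over 4 of muscle and −2.35 over 2 of epithelium, and miR-122-5p of hepatocytes had −5.92, with 0 of the 16 passing the adjusted threshold by limma. Many of them, such as miR-16-5p, miR-126a-3p and miR-122-5p, were detected on replicate 2 alone of the irradiated arrays. Such sizes, like that of miR-125b-5p, rest on signals below the detection call or at the floor. Of the red cell miRNAs, miR-451a and miR-486a-5p were detected on all 8 arrays, at −6.62 and −0.46. The summed gene signal of the 4 red cell miRNAs ranged between 2941 and 47714 on the 7 Gy arrays and between 17695 and 207384 on the 0 Gy arrays, and the part of red cell RNA in the differences of the stromal miRNAs was not tested.

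The miRNAs whose scaled signals were most like those of the stromal ones over the 8 arrays were named by Pearson's r as a description, among miRNAs detected on at least 6 arrays. For miR-145a-5p they were miR-7045-5p (r = 0.964), miR-292a-5p (r = 0.951) and miR-8101 (r = 0.951), of 411 candidates. For miR-199a-5p they were miR-30c-5p (r = 0.969), miR-29c-3p (r = 0.957) and miR-29a-3p (r = 0.953), of 412. For miR-214-3p they were miR-193b-3p (r = 0.859), miR-24-3p (r = 0.845) and miR-6899-5p (r = 0.777), of 411. The arrays behind each r share their labelling and scaling.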

How the data were processed

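Serum RNA of 4 irradiated and 4 non-irradiated mice was hybridised to 1 slide scanned on 1 day. The deposited intensity values are Agilent Feature Extraction output (version 11.5 in the submitters' processing notes, 11.5.1.1 in the file headers), in which the authors had background subtracted and probes summed, with 0.1 where a miRNA was not called detected and no normalization between arrays. No spot was saturated. Here each array was scaled to the geometric mean of the 90th percentiles over 1881 miRNAs. The study's methods name a 90% percentile shift, a lower cut-off of 100 and centring on the median of all samples. They do not say how the cut-off was applied, and here gene signals under 100 after scaling were set to 100. The centring, which shifts both doses alike, was omitted. Since that hides most of the 6 miRNAs, spot signals summed over 30 spots (outlier spots replaced by the mean of the others), with a floor of 10, were used for the members as well. miRNAs detected on at least 3 arrays were tested (633, and 208 not at the floor of 100 throughout) with limma 3.58.1 in R 4.3.3 and Benjamini-Hochberg adjustment, without covariate or block. Single values were compared with exact permutation tests over 70 arrangements or Fisher's exact test (scipy 1.17.1, Python 3.11.15), and the tests were tested on simulated data. The number of arrays limits the precision.

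The members and lists were chosen with earlier results of these data known. All 6 members are named, with relatives from the same hairpins or seeds, the 4 tested miRNAs of highest mean signal in the mesenchymal list, and the 3 most alike miRNAs of a member. miR-122-5p was named as the one miRNA of its list. The 4 within-array ratios, and the alternatives run on them, were chosen after seeing the data. Alternatives covered scaling, floor, background correction (normexp on median spot signals, offset 50), detection filter, variance model, blocks, labelling covariate, the methods' t-test and single arrays. Figures were drawn with matplotlib 3.10.9.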

Additional observations from a re-analysis of the deposited data

Results flagged for a closer look

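In 4 of 25 groups of 4 arrays examined, 1 array stood apart from the other 3 by Dixon's criterion (the gap to the nearest array as a share of the whole range). In each of the 4 groups it was 7 Gy replicate 2. The criterion passes about 1 in 20 groups by chance if values are independent and normally distributed. The groups here share arrays and miRNAs, and some hold values at the floor, so that their count cannot be set against that rate. For miR-143-3p and for miR-199a-3p at 7 Gy the share was 1.0, since the other 3 arrays lay at the floor and have no order. For the within-array log2 ratio of miR-145a-5p to miR-143-3p at 7 Gy it was 0.869, and for that of miR-214-3p to miR-199a-3p at 7 Gy it was 0.861, with the miRNA in the denominator at the floor on the other 3 arrays.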

How the results depend on the processing

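On the floored gene signal 0 members passed under every alternative run, but few could be tested there. The main fit tested 1 member, the fit on arrays with labelling in range tested 0, and that with no scaling tested 5. On the summed spot signal 0 passed except under 3 alternatives. These were array weights (5 members, beside 71.9% of all 633), within slide row 2 (2 members, beside 15.8% of all 626) and without 7 Gy replicate 2 (4 members, beside 34.9% of all 633). Every irradiated array lay at the floor for miR-199a-5p within slide row 2, and for miR-143-3p and miR-199a-3p without 7 Gy replicate 2. The range on leaving out each array was 0 to 4 members. No change of scaling turned a member's direction on the summed spot signal. On the floored gene signal miR-214-3p was tested under some scalings only, with 0.82 (75th percentile), 0.57 (labelling spike-ins) and −0.069 (no scaling). Directions turned with labelling as a covariate (miR-143-3p 2.0, miR-199a-3p 2.87, miR-199a-5p 0.062), on the arrays with labelling in range (miR-143-3p 2.20, miR-145a-5p −0.61, miR-199a-3p 3.07, miR-199a-5p 0.42) and on the arrays where the miRNA was detected (miR-143-3p 0.92, miR-199a-3p 0.14, miR-199a-5p 0.42), a choice made on the outcome that leaves 7 Gy replicate 2 as the 1 irradiated array and bears on no direction. Within arrays, the difference in ratio turned on the arrays in range for miR-145a-5p to miR-143-3p (−2.81) and miR-214-3p to miR-199a-3p (−2.11), and for the 2 arms of miR-199a with a floor of 1 (0.54) and within slide row 1 (1.73). The cause was not tested. On the summed spot signal miR-214-3p kept its direction under the alternatives run, between 0.20 and 3.22. All calls on the summed spot signal ranged from 0 to 455 and on the floored gene signal from 0 to 75. Replicate numbers are shared between the doses. The deviations of same-numbered arrays correlated at −0.42, 0.69, 0.57 and 0.47, and those of differently numbered arrays at −0.79 to 0.79. Same-numbered arrays thus did not stand out, and the numbers were not taken as pairs. With the replicate block 0 members passed in either fit, and 64 miRNAs passed on the summed spot signal and 0 on the floored gene signal. Signals below the detection call limit what can be said of miR-143-3p and miR-199a on 7 Gy replicates 1, 3 and 4.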
